A study of Mus musculus with 12 samples.

Results

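The heat shock chaperones examined here are 10 mouse genes, chosen by gene name out of 55401 genes counted in liver RNA: Hspa1a, Hspa1b, Hspa8, Hsph1, Dnajb1, Bag3, Hspb1, Hsp90aa1, Hspd1 and Hspe1. All 10 passed the filter on low counts, which kept 15982 genes. They were picked because their levels in knockout livers on the control diet were already known to stand apart, so every value that involves that group is a description and carries no test.

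The livers came from male C57BL/6 mice that carried LPCAT3flox/flox alleles, with cre (LKO) or without it (FLOX), and so the controls carry the floxed alleles too. Lpcat3 is an enzyme of phospholipid remodelling, which attaches polyunsaturated acyl chains to lysophospholipids in membranes. The promoter that drives cre is not given in the sources used here. To model non-alcoholic steatohepatitis, mice received HFHS, a high-fat, high-sugar diet, for 16 weeks, and others a control diet (NC). Sucrose is given as 30% for HFHS. Groups were LKO-HFHS, FLOX-HFHS, LKO-NC and FLOX-NC, with 3 libraries each. The labels give an age of 8 to 10 weeks for every group, which is shorter than the feeding time, so the age at sampling is not known. Whether libraries of a group stem from different mice is not stated, so p-values reflect only the spread among these samples, possibly a technical one. RNA was polyadenylated and was sequenced to total counts of 34951150 to 59205759 per library.

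Molecular chaperones bind unfolded proteins and help them to fold or to be degraded. HSP70 proteins work in cycles of ATP binding and hydrolysis that are driven by J-domain partners and closed by nucleotide exchange factors. HSP90 acts on clients such as kinases and steroid receptors, small heat shock proteins hold unfolded proteins without ATP, and HSP60 with HSP10 forms a folding chamber in mitochondria. Heat, oxidants and unfolded protein raise the inducible members through heat shock factor HSF1, which binds repeated GAA units in alternating orientation, the heat shock element.

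Among the 10 genes, the inducible HSP70 genes were the pair Hspa1a (chr17:34969190-34972156, minus strand) and Hspa1b (chr17:34956436-34959238, minus strand). Hspa8 (chr9:40800984-40810087, plus strand) encodes the constitutive HSP70 of the cytosol. Its partners were Dnajb1, an HSP40 (chr8:83608193-83612653, plus strand), and the nucleotide exchange factors Hsph1, also called HSP105 (chr5:149614287-149636376, minus strand), and Bag3, which also guides clients to autophagy (chr7:128523616-128546981, plus strand). Hspb1 (chr5:135887919-135889563, plus strand) encodes the small heat shock protein HSP25 of the mouse, and Hsp90aa1 (chr12:110690605-110702728, minus strand) the inducible HSP90 of the cytosol. Hspd1 (chr1:55077835-55088243, minus strand) encodes HSP60 and Hspe1 (chr1:55088132-55091307, plus strand) its co-chaperonin HSP10. All are protein-coding genes, with positions on mm10 as in the deposited gene table, which were the same in GENCODE M21.

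Promoter sequence is shown first, as a description, since a choice of genes named for heat shock is not independent of heat shock element letters. RefSeq starts on GRCm38.p6 were found for 8 of the 10 genes, and the 250 bases before each start were searched on both strands for paired units, GAANNTTC or TTCNNGAA. Such letters were found before at least 1 start of 6 of these 8 genes, where 14.5% of 27025 genes held them. The 6 are not separate cases, since Hspd1 and Hspe1 share their stretch and those of Hspa1a and Hspa1b are identical. Nothing is read from that share. Capitals mark them in the lines that follow, each read 5′ to 3′ on the strand of the gene.
Hspa1a, chr17:34972242-34972271, minus strand: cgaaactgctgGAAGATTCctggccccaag
Hspa1b, chr17:34959324-34959353, minus strand: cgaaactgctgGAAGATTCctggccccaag
Hspb1, chr5:135887801-135887830, plus strand: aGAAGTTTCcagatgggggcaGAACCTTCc
Hsph1, chr5:149636351-149636380, minus strand: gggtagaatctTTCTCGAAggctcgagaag
Hspe1, chr1:55088053-55088082, plus strand: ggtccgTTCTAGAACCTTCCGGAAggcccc
Hspd1, chr1:55088053-55088082, minus strand: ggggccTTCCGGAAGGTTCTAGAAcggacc
The last 2 lines are the same stretch read from either strand, since Hspd1 and Hspe1 lie head to head and their annotated spans overlap by 112 bases. This run held 4 alternating units in a row, and 3 or more such units in a row were found for 0.514% of genes. The windows of Dnajb1 and Bag3 held none of these letters, and Hspa8 and Hsp90aa1 were not among the genes with a window. In GENCODE M21 the Hsph1 stretch overlaps annotated exons of Hsph1, and the stretch of Hspd1 and Hspe1 overlaps an annotated exon of Hspd1. For Hspd1 the letters lay before only 1 of its RefSeq starts. A letter match is a description of these windows and shows no binding.

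The Hspa1a and Hspa1b copies are shown at greater length because near-identical genes can share reads. The whole window of Hspa1b, chr17:34959239-34959488 on the minus strand of GRCm38.p6, with the heat shock element letters in capitals, is given here.
Hspa1b: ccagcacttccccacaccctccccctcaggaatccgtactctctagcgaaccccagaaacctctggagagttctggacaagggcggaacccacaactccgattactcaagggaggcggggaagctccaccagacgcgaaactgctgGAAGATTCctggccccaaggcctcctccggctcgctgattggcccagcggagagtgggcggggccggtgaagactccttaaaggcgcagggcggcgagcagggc
Over its 250 bases it differed from the Hspa1a window at 3 positions, counted from the first base printed, with the Hspa1a base first: C44T, T47C and T249G. The coding sequences had 1923 bases in Hspa1a and 1926 in Hspa1b, of which 1915 were identical, 99.58% of the Hspa1a coding sequence. The split of reads between the copies is therefore uncertain, and their sum is given beside their own values.

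Library facts bear on all groups. The library labelled LKO-NC replicate 2 went against its label in the targeted gene. Lpcat3 stood at 25.0, 25.9 and 29.4 CPM in LKO-HFHS replicates 1, 2 and 3, against 72.6, 80.6 and 75.7 CPM in FLOX-HFHS. On the control diet it stood at 25.4, 65.0 and 19.4 CPM in LKO-NC replicates 1, 2 and 3, against 49.7, 49.9 and 61.9 CPM in FLOX-NC. CPM here is the deposited count as a share of the library total, on the usual CPM scale, with that total corrected by TMM, the scaling factor of edgeR. The share of counts in a ribosomal RNA gene, CT010467.1, was 5.81% to 32.7%. The hepatocyte markers summed to between 48070 and 110860 CPM in every library, so the markers of the labelled tissue were present.

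Levels per length were compared with the FPKM values the authors deposited. In all 4 groups Hspa8 had the highest mean and Hspa1a the lowest. Hspa8 averaged 679 ± 169 FPKM in LKO-NC and 379 ± 126 FPKM in FLOX-NC (SD, n = 3 each), and its libraries lay above those of the next gene, Hspe1, in every group. Hspe1 averaged 137 ± 32.2 FPKM in LKO-NC and 85.2 ± 49.0 FPKM in FLOX-NC (SD, n = 3 each). In FLOX-NC the order after Hspe1 was Hsp90aa1 (69.7 FPKM), Hspd1 (53.0 FPKM), Hspb1 (17.0 FPKM), Hsph1 (12.1 FPKM), Dnajb1 (7.51 FPKM), Hspa1b (7.35 FPKM), Bag3 (6.53 FPKM) and Hspa1a (0.955 FPKM). Neighbours in that order overlapped over their libraries, except Hspa8 and Hspe1, Hspd1 and Hspb1, and Bag3 and Hspa1a. In LKO-NC Hspb1 (98.0 FPKM), Dnajb1 (48.2 FPKM) and Hspa1b (32.6 FPKM) stood at ranks 3, 6 and 7, against ranks 5, 7 and 8 in FLOX-NC. Their values there overlapped those of the neighbouring ranks.

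In LKO-NC livers, against FLOX-NC livers, 6 of the 10 genes had all 3 libraries above all 3 of the controls: Hspa1a, Hspa1b, Hspb1, Dnajb1, Hspa8 and Bag3. Of all 15982 genes, 3.98% did so. None of the 10 lay wholly below the controls, as 4.58% of all genes did. Since the genes were chosen for this group, nothing is read from that share. Hspb1, Dnajb1, Hspa1b and Hspa1a were about 4 to 5 times higher on average, while Hspa8, Hspd1, Hspe1 and Hsp90aa1 differed by less than 1 log2 unit. The median difference of the 10 genes was 0.81 log2 units and that of all genes was -0.02.

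The inducible HSP70 pair was high in each of the 3 libraries labelled LKO-NC, also in replicate 2, where Lpcat3 was at the level of the controls. Hspa1b stood at 96.7, 82.3 and 144 CPM in LKO-NC replicates 1, 2 and 3, against 33.4, 30.0 and 18.1 CPM in FLOX-NC. Hspa1a stood at 8.73, 10.3 and 21.4 CPM in LKO-NC, against 3.62, 5.52 and 1.80 CPM in FLOX-NC. The groups did not overlap for either copy, and LKO-NC replicate 3 was the highest library for both. The differences in mean log2 CPM were 1.99 ± 0.36 for Hspa1b and 1.91 ± 0.62 for Hspa1a (SE, n = 3 each). Their sum was 105, 92.6 and 165 CPM in LKO-NC, against 37.0, 35.5 and 19.9 CPM in FLOX-NC. The ratio of Hspa1b to Hspa1a counts was 6.71 to 11.1 in LKO-NC and 5.43 to 10.0 in FLOX-NC, and the summed values did not overlap between the groups either.

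The partners of HSP70 did not all follow. Dnajb1, whose J domain starts the HSP70 cycle, stood at 87.4, 53.7 and 358 CPM in LKO-NC replicates 1, 2 and 3, against 25.9, 34.6 and 25.3 CPM in FLOX-NC. The groups did not overlap, but 1 library carried much of the mean. The difference was 2.07 ± 0.83 log2 units (SE, n = 3 each), or 1.28 without LKO-NC replicate 3. Bag3 was the most even within the libraries labelled LKO-NC, at 40.2, 37.5 and 42.7 CPM in LKO-NC, against 27.8, 24.1 and 14.5 CPM in FLOX-NC, a difference of 0.91 ± 0.29 log2 units (SE, n = 3 each). Hsph1 stood at 70.7, 56.2 and 106 CPM in LKO-NC, against 83.3, 52.8 and 23.5 CPM in FLOX-NC. The Hsph1 values overlapped, with a difference of 0.68 ± 0.60 log2 units (SE, n = 3 each). Hspa8, the constitutive HSP70, stood at 2000.5, 1484 and 2145 CPM in LKO-NC, against 982, 1188 and 1322 CPM in FLOX-NC. Its groups did not overlap, and the difference was 0.68 ± 0.21 log2 units (SE, n = 3 each).

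Hspb1, the small heat shock protein, had the largest mean difference of the 10 genes, 2.35 ± 0.55 log2 units (SE, n = 3 each). It stood at 99.4, 51.8 and 161 CPM in LKO-NC replicates 1, 2 and 3, against 13.5, 17.7 and 26.0 CPM in FLOX-NC, with no overlap. Hsp90aa1 stood at 515, 198 and 396 CPM in LKO-NC, against 360, 248 and 188 CPM in FLOX-NC. LKO-NC replicate 2 lay inside the range of the controls, and the difference was 0.42 ± 0.49 log2 units (SE, n = 3 each).

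The mitochondrial pair overlapped between the groups. Hspd1 stood at 184, 206 and 258 CPM in LKO-NC replicates 1, 2 and 3, against 122, 151 and 208 CPM in FLOX-NC, a difference of 0.45 ± 0.27 log2 units (SE, n = 3 each). Hspe1 stood at 110, 114 and 151 CPM in LKO-NC, against 51.6, 70.2 and 122 CPM in FLOX-NC, a difference of 0.70 ± 0.39 log2 units (SE, n = 3 each). For both genes only FLOX-NC replicate 3 reached into the range of the libraries labelled LKO-NC.

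**Figure D1:**
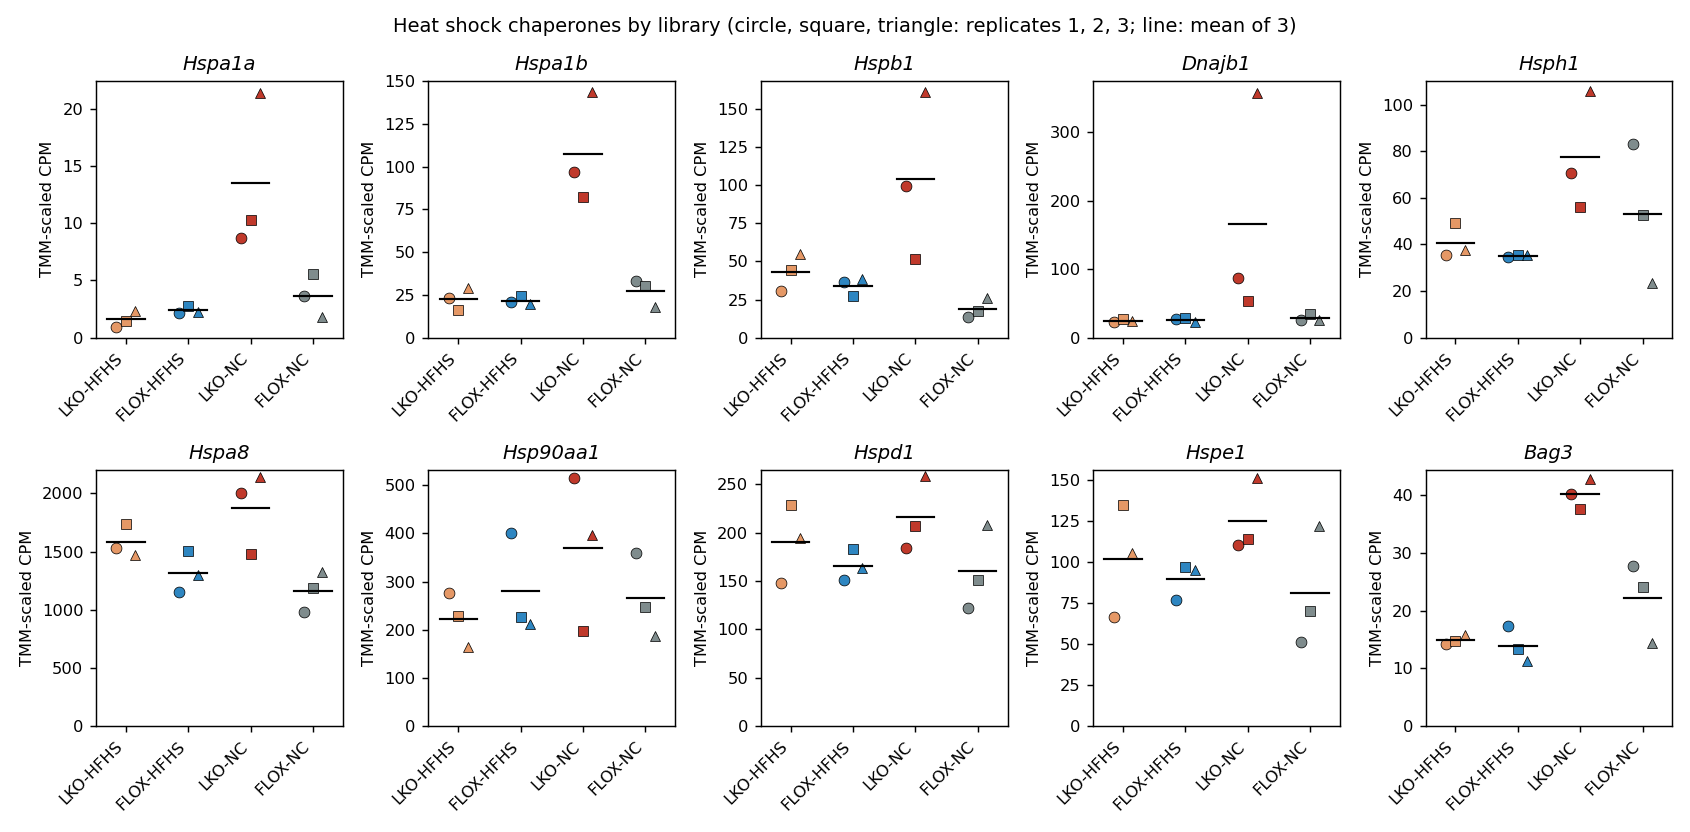
TMM-scaled CPM of each of the 10 genes (vertical axes, linear, from 0) in the 4 groups, with 1 symbol per library and a line at the mean of 3. LKO-NC replicate 3, the triangle, reached 358 CPM for Dnajb1 and 161 CPM for Hspb1, and all 3 LKO-NC libraries lay above the other 9 for Hspa1a, Hspa1b, Dnajb1 and Bag3.

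Each LKO-NC library was also set against the 9 libraries of the other groups. All 3 lay above all 9 for Hspa1a, Hspa1b, Dnajb1 and Bag3, which 0.907% of all genes did. LKO-NC replicate 1 alone lay above the 9 for 7 of the 10 genes, as for 7.57% of all genes. LKO-NC replicate 2, the library with Lpcat3 at the level of the controls, did so for 4 of the 10 and for 8.58% of all genes. LKO-NC replicate 3 did so for 9 of the 10 and for 9.25% of all genes, and it was the highest of the 12 libraries for 9 of the 10, as for 7.31% of all genes. The exception was Hsp90aa1, which was highest in LKO-NC replicate 1. Relative to the median of the 9 libraries, Dnajb1 was 3.37, 2.07 and 13.8 times as high in LKO-NC replicates 1, 2 and 3. Bag3 was 2.71, 2.53 and 2.89 times as high, with hardly any spread between the 3 libraries. Hspd1 reached 1.12, 1.26 and 1.58 times that median.

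**Figure D2:**
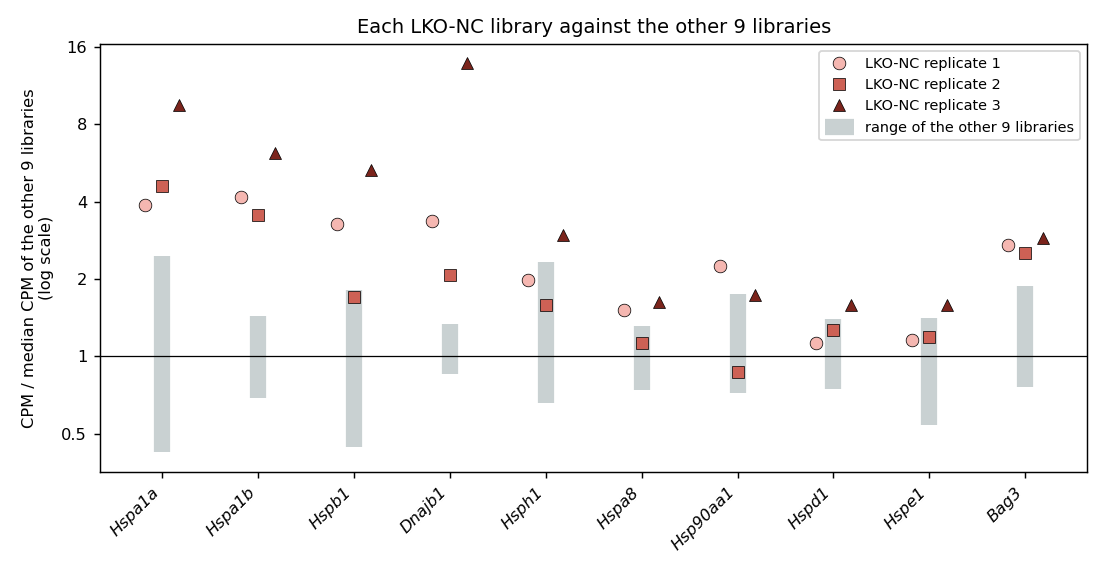
CPM of each LKO-NC library divided by the median CPM of the other 9 libraries (log scale), with the range of those 9 as a grey bar. The 3 symbols lie close together for Bag3 (2.53 to 2.89) and far apart for Dnajb1 (2.07 to 13.8), and LKO-NC replicate 2 lies inside the grey bar for Hspb1, Hsph1, Hspa8, Hsp90aa1, Hspd1 and Hspe1.

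Without the library labelled LKO-NC replicate 2, the difference between LKO-NC and FLOX-NC was 2.17 log2 units for Hspa1b, 2.05 for Hspa1a, 2.78 for Hspb1, 2.64 for Dnajb1, 0.96 for Bag3 and 0.84 for Hspa8, and 7 of the 10 genes showed no overlap, as did 6.93% of all genes over the same libraries. The differences were positive for all 10 genes whichever LKO-NC library was left out.

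Other measures in the same libraries are given beside these values. A list of 18 immediate early genes, which cells raise within minutes to hours of a stimulus, summed to 287, 174 and 810 CPM in LKO-NC replicates 1, 2 and 3, against 169 to 239 CPM in FLOX-NC. Egr1, named after its values were seen, made up 38.2, 4.67 and 252 CPM of these sums in LKO-NC, against 7.26 to 12.4 CPM in FLOX-NC. Of the 18 genes 13 had a positive difference and 1 did not overlap. For this and the marker lists that follow, 3.98% of all genes lay higher and 4.58% lower without overlap. The ribosomal RNA gene took 9.29%, 5.81% and 9.45% of counts in LKO-NC, against 32.7%, 8.74% and 5.91% in FLOX-NC. The 7 neutrophil markers summed to 8.20, 1.94 and 11.8 CPM in LKO-NC, against 2.68 to 4.51 CPM in FLOX-NC, with Cxcr2 at 0 in LKO-NC replicate 2, and none of the 4 that passed the filter differed without overlap. The 6 erythroid markers summed to 154, 386 and 219 CPM in LKO-NC, against 94.0 to 234 CPM in FLOX-NC, with 4 of 6 positive, and Slc4a1 alone did not overlap, and was lower in LKO-NC, with a difference of -0.85 log2 units. The 11 hepatocyte markers all had a positive difference with 0 free of overlap, and summed to 82979 to 100470 CPM in LKO-NC and 53975 to 110860 CPM in FLOX-NC. The 9 Kupffer cell markers summed to 55.8 to 91.2 CPM in LKO-NC and 56.0 to 105 CPM in FLOX-NC. The 8 lymphocyte markers summed to 1.11, 2.10 and 1.42 CPM in LKO-NC, against 3.12, 3.24 and 2.80 CPM in FLOX-NC, and these sums did not overlap, with Cd3e at 0 in all 3 LKO-NC libraries and in FLOX-NC replicate 1. The part of these measures in the chaperone values was not tested. In bulk liver, fewer cells of a type and less RNA per cell cannot be told apart.

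On the HFHS diet the 10 genes were compared between LKO-HFHS and FLOX-HFHS livers, a comparison that holds no LKO-NC library. The genes were still chosen with earlier results of these data known. SEs and intervals come from 1 fit of all 12 libraries, so the spread within LKO-NC enters them. None of the 10 was called at an adjusted p under 0.05 by the edgeR quasi-likelihood test (0 of 10), and none had an unadjusted p under 0.05. Of all 15982 genes 0% were called. Lpcat3, the targeted gene, was not called either, at -1.51 ± 0.35 log2 units (SE) with an edgeR adjusted p of 0.683. Its LKO-HFHS libraries all lay below those of FLOX-HFHS, so a gene not called here is not shown to be unchanged. None of the 10 had its libraries wholly above or wholly below the controls, as 5.9% and 5.47% of all genes did. DESeq2 and limma on the deposited FPKM values also called 0 of the 10. Log2 fold changes ran between -0.59 and 0.35, 7 of 10 were positive, and the median was 0.14, against 0.01 over all genes. The median of all genes moved to 0.45 log2 units when no scaling factor was used, and the values here are relative to the scaled libraries.

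Single genes lay close together here. Hspa1b stood at 23.3, 16.0 and 29.0 CPM in LKO-HFHS, against 20.7, 24.1 and 19.9 CPM in FLOX-HFHS, a log2 fold change of 0.08 ± 0.29 (SE) with a 95% interval of -0.59 to 0.74. Hspa1a stood at 0.947, 1.44 and 2.37 CPM in LKO-HFHS, against 2.18, 2.78 and 2.24 CPM in FLOX-HFHS, and rested on as few as 40 counts in a library. Its groups overlapped, and the log2 fold change of -0.59 ± 0.46 (SE) had the widest interval of the HSP70 genes, -1.65 to 0.47. The sum of Hspa1a and Hspa1b was 24.2, 17.4 and 31.3 CPM in LKO-HFHS, against 22.9, 26.9 and 22.2 CPM in FLOX-HFHS. The ratio of Hspa1b to Hspa1a counts was 24.6, 11.1 and 12.2 in LKO-HFHS, against 9.53, 8.67 and 8.88 in FLOX-HFHS. The part of the read split in the Hspa1a values was not tested. Dnajb1 stood at 22.8, 26.5 and 24.6 CPM in LKO-HFHS, against 27.1, 28.1 and 22.1 CPM in FLOX-HFHS. Bag3 stood at 14.3, 14.8 and 15.8 CPM in LKO-HFHS, against 17.3, 13.3 and 11.2 CPM in FLOX-HFHS, a log2 fold change of 0.10 ± 0.24 (SE) with an interval of -0.45 to 0.66. For both genes all 3 knockout libraries lay within the range of the controls.

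Hspb1 stood at 30.3, 44.6 and 55.1 CPM in LKO-HFHS, against 36.3, 27.6 and 38.3 CPM in FLOX-HFHS, a log2 fold change of 0.35 ± 0.37 (SE) with an interval of -0.51 to 1.21. Hspa8 stood at 1530, 1741 and 1471 CPM in LKO-HFHS, against 1153, 1504 and 1297 CPM in FLOX-HFHS, at 0.26 ± 0.23 (SE) and an interval of -0.26 to 0.78. The groups overlapped for both genes, and both intervals include 0. Hsp90aa1 stood at 277, 228 and 165 CPM in LKO-HFHS, against 400, 226 and 213 CPM in FLOX-HFHS. Hsph1 stood at 35.4, 49.4 and 37.6 CPM in LKO-HFHS, against 34.6, 35.6 and 35.3 CPM in FLOX-HFHS. Hspd1 (0.20 ± 0.24) and Hspe1 (0.18 ± 0.32) had log2 fold changes smaller than their SE (n = 3 each).

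The HFHS diet in floxed livers, FLOX-HFHS against FLOX-NC, gave no call among the 10 genes at an adjusted p under 0.05 (0 of 10), where the edgeR quasi-likelihood test called 2.9% of all genes, 1.6% higher and 1.31% lower. DESeq2 and limma on FPKM also called 0 of the 10. Unadjusted, 2 of the 10 had a p under 0.05. Log2 fold changes ran between -0.67 and 0.83 with 5 positive, and their median was -0.05, against -0.01 over all genes.

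The 2 genes that came nearest to the threshold lay on opposite sides. Hspb1 stood at 36.3, 27.6 and 38.3 CPM in FLOX-HFHS, against 13.5, 17.7 and 26.0 CPM in FLOX-NC. It was the only 1 of the 10 whose FLOX-HFHS libraries all lay above the controls, as did those of 10.6% of all genes, and none of the 10 lay wholly below them, as 8.99% of all genes did. Its log2 fold change of 0.83 ± 0.38 (SE) had an edgeR adjusted p of 0.268, and over all alternatives it lay between 0.0621 and 0.539. Bag3 stood at 17.3, 13.3 and 11.2 CPM in FLOX-HFHS, against 27.8, 24.1 and 14.5 CPM in FLOX-NC. FLOX-NC replicate 3 overlapped with the HFHS group, and the log2 fold change of -0.67 ± 0.24 (SE) had an edgeR adjusted p of 0.170. Without FLOX-NC replicate 3 it was -0.89 with an adjusted p of 0.0403, and over all alternatives the adjusted p lay between 0.0403 and 0.485.

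The other members had values that did not separate by diet. Hspa1b stood at 20.7, 24.1 and 19.9 CPM in FLOX-HFHS, against 33.4, 30.0 and 18.1 CPM in FLOX-NC, a log2 fold change of -0.33 ± 0.29 (SE). The sum of Hspa1a and Hspa1b was 22.9, 26.9 and 22.2 CPM in FLOX-HFHS, against 37.0, 35.5 and 19.9 CPM in FLOX-NC. Hsph1 was the tightest in 1 group and among the widest in the other, with 34.6, 35.6 and 35.3 CPM in FLOX-HFHS, against 83.3, 52.8 and 23.5 CPM in FLOX-NC. Its log2 fold change was -0.60 ± 0.37 (SE), with an interval of -1.44 to 0.25. Hspa1a was at -0.60 ± 0.46, Dnajb1 at -0.15 ± 0.51, Hspa8 at 0.18 ± 0.23, Hsp90aa1 at 0.08 ± 0.37, Hspd1 at 0.05 ± 0.24 and Hspe1 at 0.15 ± 0.32 log2 units (SE, n = 3 each). Markers of other cells differed between these diets: of 9 Kupffer cell markers 5 rose, all in the same edgeR test, and their sum was 140 to 286 CPM in FLOX-HFHS and 56.0 to 105 CPM in FLOX-NC. The 8 stellate cell markers summed to 239 to 444 CPM in FLOX-HFHS and 109 to 197 CPM in FLOX-NC, with 0 called and 7 at an unadjusted p under 0.05. The part of these cells in the chaperone values was not tested.

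**Figure D3:**
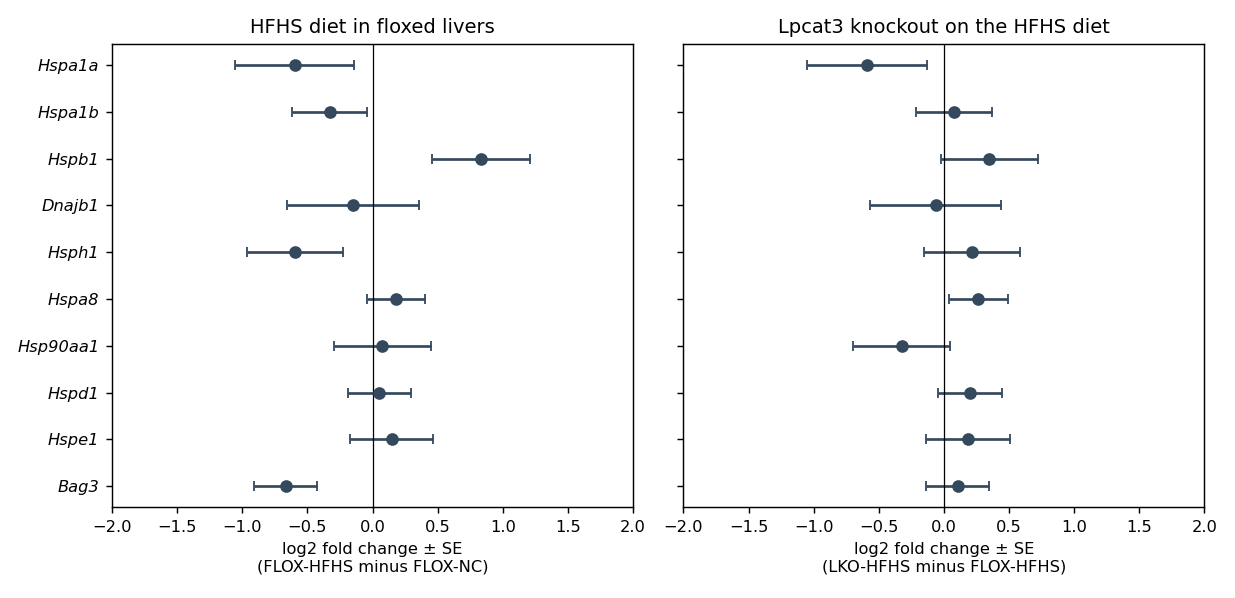
Log2 fold change with its SE (horizontal axes) of each of the 10 genes for FLOX-HFHS against FLOX-NC on the left and LKO-HFHS against FLOX-HFHS on the right, from 1 edgeR fit of 12 libraries. No gene passed an adjusted p of 0.05, and the points lie between -0.67 and 0.83.

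In LKO-HFHS livers, against LKO-NC livers, all 10 genes had a lower mean, and 5 had all 3 libraries below all 3 of LKO-NC: Hspa1a, Hspa1b, Dnajb1, Hsph1 and Bag3. Of all genes 13% did so, and since the genes were chosen for LKO-NC nothing is read from the count. Hspa1a was lowest relative to its partner group, at -3.07 ± 0.55 log2 units (SE, n = 3 each), with 0.947 to 2.37 CPM in LKO-HFHS and 8.73 to 21.4 CPM in LKO-NC. The sum of Hspa1a and Hspa1b was 17.4 to 31.3 CPM in LKO-HFHS and 92.6 to 165 CPM in LKO-NC. Hspa1b was at -2.24 ± 0.35 and Dnajb1 at -2.27 ± 0.82 log2 units (SE, n = 3 each). Without LKO-NC replicate 3 the Dnajb1 difference was -1.48. Bag3 was at -1.42 ± 0.07, the smallest SE of the 10 genes, since its libraries lay within 14.3 to 15.8 CPM in LKO-HFHS and within 37.5 to 42.7 CPM in LKO-NC. Hspb1 was at -1.16 ± 0.54 and overlapped, because LKO-NC replicate 2 stood at 51.8 CPM, below the 55.1 CPM of LKO-HFHS replicate 3. Hsph1 was at -0.89 ± 0.31, Hsp90aa1 at -0.65 ± 0.47, Hspe1 at -0.34 ± 0.33, Hspa8 at -0.23 ± 0.18 and Hspd1 at -0.19 ± 0.23 log2 units (SE, n = 3 each). Without LKO-NC replicate 2, 8 of the 10 showed no overlap, as did 16.5% of all genes over the same libraries. Deviations of same-numbered libraries correlated at only 0.10 to 0.29 between these 2 groups, and pairing by number was not established. Matched by replicate number, Hspa1a, Hspa1b, Hspb1, Dnajb1, Hsph1 and Bag3 were lower in 3 of 3 pairs and the other members in 2 of 3. Cell markers also separated without overlap here, where 16.9% of all genes lay higher and 13% lower without overlap. The hepatocyte markers summed to 48668 to 49308 CPM in LKO-HFHS and 82979 to 100470 CPM in LKO-NC, with 1 of 11 positive and 9 lower without overlap. The Kupffer cell markers summed to 176 to 210 CPM in LKO-HFHS and 55.8 to 91.2 CPM in LKO-NC, with 7 of 9 higher without overlap. The stellate cell markers summed to 272 to 348 CPM in LKO-HFHS and 65.6 to 164 CPM in LKO-NC, with 7 of 8 higher without overlap, while the cholangiocyte markers summed to 169 to 225 CPM in LKO-HFHS and 36.7 to 47.2 CPM in LKO-NC, with 3 of 5. Their part in the chaperone values was not tested. This comparison shares its LKO-NC libraries with the comparison on the control diet.

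Within groups some of the 10 genes varied together. Levels were taken as log2 CPM with the group means removed, over 12 libraries, and genes of a library share its depth and scaling factor. Hspd1 and Hspe1 varied almost as 1 gene, with a Pearson's r of 0.97 and a Spearman's rho of 0.99. Without the 2 libraries farthest from the median of Hspd1, r was 0.95, and over the 9 libraries outside LKO-NC it was 0.99. Both were lowest in replicate 1 of all 4 groups, and Hsp90aa1 was highest there. Between libraries of the same number both were higher in LKO-NC than in FLOX-NC in 3 of 3 pairs. The ratio of Hspe1 to Hspd1 counts lay between 0.424 and 0.601 in all 12 libraries. Their annotated spans overlap and the strand setting of the counting is not given in the sources used here, so reads in the shared 112 bases could count for either gene.

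The 6 pairs among Hspa1a, Hspa1b, Hsph1 and Bag3 had r of 0.55 to 0.77. Without the 2 libraries farthest from the median of the gene named earlier in that order, r was 0.27 to 0.70. Leaving them out also narrows the range of that gene. Hsph1 and Bag3, both nucleotide exchange factors of HSP70, had r = 0.77 and rho = 0.64 over 12 libraries. Their r was 0.79 over the 9 outside LKO-NC, but 0.27 without the 2 libraries farthest in Hsph1. Whether the relation rests on those libraries was not tested. Hspa1a and Hspa1b had r = 0.74 and rho = 0.78, and r = 0.55 without the 2 farthest. Bag3 and Hspe1 went opposite ways, with r = -0.61 and rho = -0.42, and r = -0.10 without the 2 libraries farthest in Hspe1. Dnajb1 and Hspb1 had r = 0.68 but rho = 0.28. Their r was -0.13 without the 2 libraries farthest in Hspb1. Whether the r of 0.68 rests on those libraries was not tested either. No test was made of these relations.

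**Figure D4:**
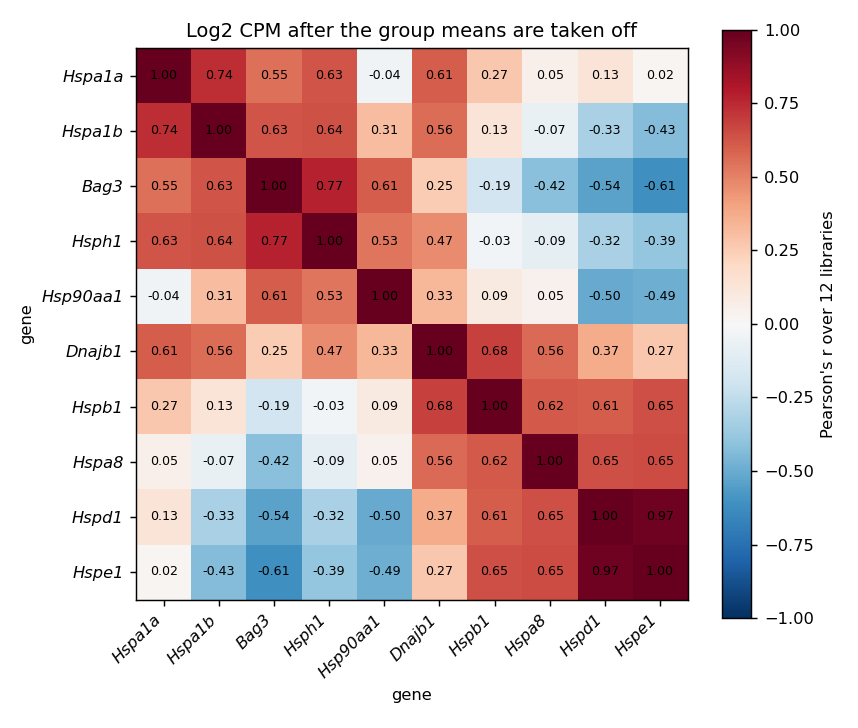
Pearson's r between the 10 genes (both axes) over 12 libraries, from log2 CPM with the group means removed, on a colour scale from -1 to 1. Hspd1 and Hspe1 stand out at 0.97, and the 6 pairs among Hspa1a, Hspa1b, Hsph1 and Bag3 lie between 0.55 and 0.77, while Hspa8 lies between -0.42 and 0.05 with these 4 genes.

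Genes with the profile most like the mean of the 10 over all 12 libraries were ranked by Pearson's r of log2 CPM among genes of at least 1 CPM. Stip1, which encodes the adaptor that hands clients between HSP70 and HSP90, was the most similar, with r = 0.96. It stood at 76.2, 56.0 and 86.9 CPM in LKO-NC replicates 1, 2 and 3, against 44.8, 48.5 and 47.9 CPM in FLOX-NC. Stip1 is also a chaperone gene, and its LKO-NC libraries lay above the other 9, which reached at most 49.4 CPM. Of all genes 0.907% did so. Since Stip1 was picked for likeness to genes chosen for LKO-NC, nothing is read from that. The next 9 were Tmem41b, Ccdc117, Dusp6, Trib1, Ddx24, Traf4, Arl4a, Rcor1 and Cldn14, with r of 0.92 to 0.84. Once group means were removed and LKO-NC was left out, r over 9 libraries ranged between 0.05 for Cldn14 and 0.78 for Dusp6 among these genes, and it was 0.42 for Stip1.

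After group means were removed from all 12 libraries, the 10 most similar genes were Mcm2 (r = 0.97), Ier5, Zfand2a, Dusp6, Btg2, Zfp36l2, Midn, Ugt1a5, Atf3 and Lnx2 (r = 0.89). Mcm2 encodes a subunit of the replicative helicase, Ier5 and Btg2 are immediate early genes, Dusp6 encodes a phosphatase of ERK, and Zfand2a an arsenite-inducible zinc finger protein. Btg2 reached 88.7 CPM in LKO-NC replicate 3, against 3.89 and 6.36 CPM in the other libraries of LKO-NC. Over the 9 libraries outside LKO-NC, r was 0.90 for Mcm2, 0.84 for Zfand2a and 0.54 for Ugt1a5, the lowest of the 10. These r values are ranks within 1 data set and carry no test.

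The heat shock factor list held Hsf1, Hsf2 and Hsf4, and Hsbp1, which is not itself a factor. None of these 4 genes was called by edgeR in either tested comparison, and 1, Hsf2, had an unadjusted p under 0.05. Hsf1, the main heat-responsive factor, stood at 12.2, 3.49 and 6.33 CPM in LKO-NC replicates 1, 2 and 3, against 12.8, 10.5 and 4.63 CPM in FLOX-NC, and these values overlapped. Hsf2, a factor that can join HSF1 in trimers, stood at 30.2, 28.9 and 26.8 CPM in LKO-NC, against 49.5, 28.3 and 26.1 CPM in FLOX-NC. In FLOX-HFHS it stood at 20.2, 22.9 and 17.1 CPM, below all FLOX-NC libraries, and the log2 fold change was -0.79 ± 0.25 (SE), with an edgeR adjusted p of 0.115. Hsf4 had a log2 fold change of -0.95 ± 0.52 (SE) and Hsbp1, which encodes a protein that binds HSF1, of 0.47 ± 0.27 (SE) in the same comparison, with adjusted p values of 0.373 and 0.393. In LKO-HFHS against FLOX-HFHS all 4 had an edgeR adjusted p of 1, with Hsf2 at 0.15 ± 0.25, Hsf4 at 0.14 ± 0.52, Hsbp1 at -0.12 ± 0.27 and Hsf1 at -0.13 ± 0.45 log2 units (SE).

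RNA-binding proteins that respond to temperature were also measured. Cirbp, which cold induces, stood at 3.32, 4.46 and 3.44 CPM in LKO-NC, against 4.18, 1.56 and 8.13 CPM in FLOX-NC. Rbm3, also cold-induced, stood at 12.7, 21.0 and 21.9 CPM in LKO-NC, against 8.03, 13.7 and 18.4 CPM in FLOX-NC. Both overlapped between the groups. Srsf5, a splicing factor, did not overlap, at 38.0, 33.7 and 38.4 CPM in LKO-NC, against 49.8, 39.8 and 68.7 CPM in FLOX-NC. In the edgeR tests 0 of these 3 genes were called in FLOX-HFHS against FLOX-NC or in LKO-HFHS against FLOX-HFHS and 0 had an unadjusted p under 0.05. The smallest edgeR p of the 3 was that of Srsf5, 0.0528 for the diet in floxed livers.

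The other chaperones were 87 genes in 8 lists, with the heat shock factors among them, of which 86 passed the filter. In FLOX-HFHS against FLOX-NC the edgeR test called 1 higher and 1 lower, where it called 2.9% of all genes, and DESeq2 called 5, where it called 8.1% of all genes. Neither count lies above the share of all genes. Serpinh1, the collagen chaperone HSP47 of the endoplasmic reticulum, rose by 1.59 ± 0.33 log2 units (SE) with an adjusted p of 0.0255. It stood at 29.9, 27.5 and 37.7 CPM in FLOX-HFHS, against 6.90, 14.9 and 9.73 CPM in FLOX-NC, without overlap. Hspb6, a small heat shock protein, fell by 1.02 log2 units (SE 0.22) with an adjusted p of 0.0270. It was at 4.13, 3.97 and 3.09 CPM in FLOX-HFHS, against 7.46, 8.23 and 6.97 CPM in FLOX-NC. Near the threshold were the HSP90 partners Ahsa2, at -0.79 ± 0.23 (SE) and an adjusted p of 0.0850, and Fkbp5, at 0.77 ± 0.24 (SE) and 0.108. In LKO-HFHS against FLOX-HFHS edgeR called 0 of the 86, 2 had an unadjusted p under 0.05, and DESeq2 called 0. These 2 were Fkbp5, at 0.66 ± 0.24, and Sdf2l1, a partner of the BiP chaperone, at -0.79 ± 0.36 log2 units (SE).

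By compartment, in LKO-NC against FLOX-NC all 16 genes of the endoplasmic reticulum list had a positive difference, with a median of 0.50 log2 units, and 7 did not overlap, where 3.98% of all genes did so. Their sum was 3411, 3733 and 3624 CPM in LKO-NC, against 1763, 2712 and 3464 CPM in FLOX-NC, so that FLOX-NC replicate 3 came close to the libraries labelled LKO-NC, of which replicate 2 held the highest sum. Of the HSP90 list 11 of 12 were positive with 4 not overlapping, of the J-domain list 6 of 10 with 3, of the mitochondrial list 8 of 9 with 1, of the chaperonin TRiC and prefoldin list 11 of 14 with 1, and of the cytosolic HSP70 list 11 of 15 with 1. Of the small heat shock proteins 3 of 6 were positive, with 1 above and 1, Hspb6, below without overlap. Of the heat shock factor list 1 of 4 was positive, Hsbp1, with 0 free of overlap. Over all 86 genes 67 were positive, 18 lay above without overlap and 1 below. In LKO-HFHS against LKO-NC 17 of the 86 were positive, 4 lay above without overlap and 31 below, where 16.9% and 13% of all genes did so. LKO-NC was known to stand apart, and these counts carry no test.

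**Figure D5:**
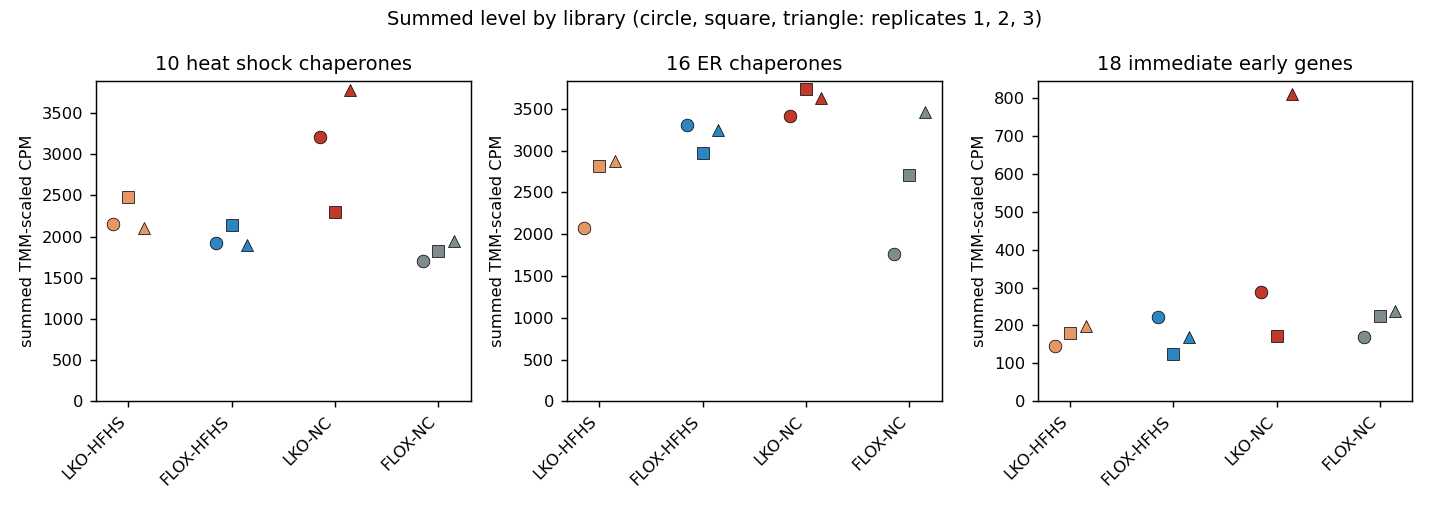
Summed TMM-scaled CPM (vertical axes, linear, from 0) of the 10 heat shock chaperones, the 16 endoplasmic reticulum chaperones and the 18 immediate early genes in each library. LKO-NC replicate 3 holds the highest sum of the first list (3783 CPM) and of the immediate early genes (810 CPM), and LKO-NC replicate 2 the highest sum of the endoplasmic reticulum list (3733 CPM).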

How the data were processed

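HISAT2, StringTie, cutadapt, FastQC, edgeR and the mm10 build are named, without version or order, per the submitters' processing notes. Deposited values are estimated counts per gene and transcript, all whole numbers, where plain counts had been planned for, so the count test was kept; FPKM values were made by the authors. The labels name a stranded mRNA kit and a further library kit. Genes were filtered with filterByExpr, which kept 15982, scaled by TMM and fitted in 1 edgeR quasi-likelihood model (edgeR 4.0.16, R 4.3.3) with a term for each of 4 groups and 8 residual degrees of freedom. Adjusted p is Benjamini-Hochberg over all tested genes, with calls at 0.05. Comparisons with LKO-NC were described by the difference in mean log2 CPM and by overlap of 3 against 3 libraries. DESeq2 1.42.0, limma 3.58.1 on log2(FPKM + 0.1), other scalings and filters, and leaving out each library were alternatives. Deviations of same-numbered libraries correlated at only 0.10 to 0.29 between LKO-HFHS and LKO-NC, so pairing by number was not established there either. The edgeR steps were tested on simulated data. Members, lists and rules were chosen with earlier results of these data known. Named genes were all members, Lpcat3, each list's called genes and its 4 of smallest p, all heat shock factors and temperature-responsive genes, and the 10 most similar by each correlation; 1 gene of the temperature list is not reported here. Library totals and counts per gene set the precision, and intervals cover the fitted spread only.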

Additional observations from a re-analysis of the deposited data

Results flagged for a closer look

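Hyou1 and Sdf2l1, both of the endoplasmic reticulum, were singled out because libraries labelled LKO and FLOX separated without overlap on both diets, in opposite directions. Hyou1, a chaperone of the HSP70 family, differed by -0.49 log2 units between LKO-HFHS and FLOX-HFHS, and by 0.88 between LKO-NC and FLOX-NC. Sdf2l1 differed by -0.72 log2 units between LKO-HFHS and FLOX-HFHS, and by 0.98 between LKO-NC and FLOX-NC. These are differences in mean log2 CPM, and the difference between the diets was not tested. Both genes rest on LKO-NC, which was known to stand apart and whose replicate 2 had Lpcat3 at the level of the controls. None of the 10 heat shock chaperones met this condition, and groups of 3 libraries were not searched for single outlying values.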

How the results depend on the processing

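Of the 10 heat shock chaperones, 0 were called in each of the 2 tested comparisons under every alternative run, except that leaving out FLOX-NC replicate 3 called 1 for the diet in floxed livers (range 0 to 1), Bag3. The number of all genes called for the diet in floxed livers, 464, was 299 with no scaling factor, 1295 with DESeq2, 287 with limma on FPKM, 111 with the 6 libraries alone, and 122 to 535 with 1 library left out. For the knockout on the HFHS diet, 0 in the edgeR fit, it was 1 with no scaling factor, 42 with DESeq2, 2 with limma on FPKM, and 0 with each library left out. With the replicate number as a block it was 1257 for the diet in floxed livers and 5 for the knockout on the HFHS diet, and 0 of the 10 genes were called in either. Deviations of libraries with the same number correlated at -0.03 to 0.25 and at 0.08 to 0.23, and not every library correlated best with its own number, so in the tested comparisons pairing by number was not established. In LKO-NC against FLOX-NC these correlations were -0.02 to 0.30, and in LKO-HFHS against LKO-NC 0.10 to 0.29. A block leaves the described mean differences as they are, and no test was made there. Some levels did go with the number. In replicate 1 of every group Hspd1 and Hspe1 were lowest, and Hsp90aa1 and the sum of the clock genes given below were highest. What the numbers stand for is not known, and an effect shared by libraries of 1 number was not tested.

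Directions of small differences depended on the setting, and the cause was not tested. With no scaling factor, the diet in floxed livers gave -0.040 for Hsp90aa1 and -0.040 for Hspd1, the knockout on the HFHS diet 0.40 for Dnajb1 and 0.17 for Hsp90aa1, and LKO-HFHS against LKO-NC 0.025 for Hspa8 and 0.069 for Hspd1. On FPKM these were -0.15 for Hsp90aa1, then 0.39 for Dnajb1 and 0.13 for Hsp90aa1, then 0.053 for Hspa8 and 0.055 for Hspd1. With each library left out in turn, the diet in floxed livers gave -0.23 to 0.36 for Hsp90aa1, -0.10 to 0.29 for Hspd1, -0.082 to 0.57 for Hspe1 and -0.23 to 0.011 for Dnajb1. The knockout on the HFHS diet gave -0.12 to 0.27 for Hspa1b, -0.17 to 0.0079 for Dnajb1, -0.50 to 0.0058 for Hsp90aa1, -0.073 to 0.42 for Hspe1 and -0.033 to 0.27 for Bag3. In the described comparisons 5 to 8 genes did not overlap in LKO-HFHS against LKO-NC, with 14.8% to 19.6% of all genes, and 6 to 8 in LKO-NC against FLOX-NC, with 6.19% to 17.8%. Without a scaling factor the median of all genes shifted by 0.45 for the knockout on the HFHS diet and by 0.26 for LKO-HFHS against LKO-NC.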

Other observations

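The 13 clock genes, which follow the time of day at which tissue is taken, summed to 382, 309 and 329 CPM in LKO-HFHS replicates 1, 2 and 3, and to 370, 229 and 235 CPM in FLOX-HFHS. The sum was 391.8, 254 and 190 CPM in LKO-NC and 440, 311 and 230 CPM in FLOX-NC, so the libraries numbered 1 held the highest sum in every group. The edgeR test called 0 of the 13 in FLOX-HFHS against FLOX-NC and 0 in LKO-HFHS against FLOX-HFHS, and 0 had an unadjusted p under 0.05 in either. Among the 18 immediate early genes edgeR called 0 in either comparison, with 4 and 1 at an unadjusted p under 0.05. Klf6 was at 1.54 ± 0.41 log2 units (SE) in FLOX-HFHS against FLOX-NC with an edgeR adjusted p of 0.0626, and Dusp1 at -1.10 ± 0.32 and 0.0935. In LKO-HFHS against FLOX-HFHS, Atf3 stood at 6.51, 8.63 and 8.22 CPM in LKO-HFHS and 2.71, 2.74 and 3.27 CPM in FLOX-HFHS, without overlap, with an edgeR adjusted p of 1.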
